A study of Mus musculus with 6 samples.

Results

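Nuclei of mouse striatum that carried the transcripts of somatostatin (Sst) or neuropeptide Y (Npy) were examined across 6 single-nucleus RNA libraries. A nucleus was a member when its summed Sst and Npy value was at least 4, its summed Nxph1, Nos1 and Elfn1 value was at least 3, its Slc17a7 value was at most 1, its summed Rgs9 and Pde10a value was at most 7 and its summed Mog and Mag value was at most 1. By this rule 540 of 48834 nuclei were members, and they are called Sst/Npy-gated nuclei here. Slc17a7 marks glutamatergic neurons, Rgs9 and Pde10a mark medium spiny neurons (MSNs, the projection neurons of the striatum), and Mog and Mag mark oligodendrocytes. The members were chosen by the measured values of these 10 genes, so the levels of those genes, and of every other gene against the remaining nuclei, are given as a description with no test.

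The libraries came from flash-frozen dissected striatum of 3 wild-type mice and 3 Celsr3 heterozygous mice, 1 library for each biological replicate. Celsr3 encodes a cadherin of the plasma membrane that belongs to the planar cell polarity family and guides growing axons. The labels name neither the age, sex or strain of the mice nor a litter or batch, and they do not state which stretch of Celsr3 is altered. All values are corrected UMI values, that is, molecule counts per gene and nucleus adjusted for depth and rounded, so the original depth is unknown and no counting interval can be given. P-values measure the spread between these libraries.

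Striatal interneurons that make somatostatin, neuropeptide Y and neuronal nitric oxide synthase are GABAergic cells born in the medial ganglionic eminence, where the transcription factors Lhx6 and Sox6 direct their fate. They fire with a low threshold, release peptides onto MSN dendrites and, through Nos1, supply nitric oxide to the striatum. Other GABAergic classes share some of these transcripts: neurogliaform cells carry Npy without Sst, and cortical Sst cells often carry Elfn1, which shapes the glutamate synapses they receive.

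The stretch just upstream of the annotated start is shown for Sst and Npy, the peptide genes on which the rule rests, because their transcripts were found together in many but not all gated nuclei. Each run holds 150 bases, 5′ to 3′ on the gene's own strand, from RefSeq (GRCm38.p6). Capitals mark the palindrome TGACGTCA, known as the cAMP response element.
Sst, chr16:23890845-23890994, minus strand: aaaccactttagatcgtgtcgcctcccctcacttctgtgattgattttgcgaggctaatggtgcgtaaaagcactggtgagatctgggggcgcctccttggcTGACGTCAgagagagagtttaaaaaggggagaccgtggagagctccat
Npy, chr6:49822560-49822709, plus strand: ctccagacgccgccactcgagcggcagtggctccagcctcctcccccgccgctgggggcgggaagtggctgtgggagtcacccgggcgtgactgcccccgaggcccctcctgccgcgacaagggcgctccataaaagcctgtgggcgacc
The Sst stretch held the palindrome 1 time, 40 bases before the start, and the Npy stretch held it 0 times on either strand. Of 32851 annotated promoter windows of the same length, 1.36% held TGACGTCA. The letters are a description of sequence only.

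Replicates 1 to 3 of wild type held 90, 63 and 108 gated nuclei, and those of the heterozygotes held 107, 80 and 92. Gated nuclei made up 1.10% ± 0.275 of the nuclei of the wild-type libraries and 1.12% ± 0.211 of those of the heterozygous libraries (SD, n = 3 each). The groups overlapped (exact permutation p = 0.9, two-sided), and 3 against 3 libraries cannot give a p below 0.1. The sign of this difference of 0.017 percentage points turned when wild-type replicate 2 was left out (-0.134) or heterozygous replicate 1 was left out (-0.103). Gated nuclei had a median of 3641.5 genes with a value, against 2836 in the other nuclei. Their median was 3604 ± 55.1 genes in wild type and 3694.5 ± 92.6 genes in heterozygotes (SD over 3 libraries each; two-sided exact permutation p = 0.2). This difference of 90.2 genes turned to -27.7 with a summed Rgs9 and Pde10a value of at most 3. Of all barcodes, 274 occurred in more than 1 library, and 11 of the members' barcodes also occurred in another library, though 0 were shared between members. Doublets were not called, and apart from the limits on other classes' genes in the rule none were removed.

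The label of the population was checked against its markers. Sst had a value above 0 in 501 of the 540 gated nuclei (92.8%) and Npy in 398 (73.7%). Nos1, the nitric oxide synthase, had a value in 218 (40.4%), and Elfn1 in 146 (27.0%). In the same libraries 7722 nuclei with oligodendrocyte transcripts, which should lack these genes, had a value of Nos1 in 2.47% and of Elfn1 in 1.49%. Sst had a value in 31.2% of those oligodendrocyte-gated nuclei and Npy in 18.1%, at a median of 1942 genes per nucleus, so a low Sst or Npy value in itself is at the level of background. All 3 of Sst, Npy and Nos1 were present in 189 gated nuclei (35.0%), Sst and Npy without Nos1 in 170 (31.5%), Sst alone in 121 (22.4%) and Npy alone in 31 (5.74%). The nuclei with all 3 transcripts averaged 18.95 for Sox6 and 1.62 for Lhx6, while those with Sst alone averaged 3.54 and 0.364. Counted by values above 0, the data therefore go against the name Sst/Npy/Nos1 for most of the members, and the rule gathers several kinds of nuclei. A value of 0 in a single nucleus can also be a transcript that was missed, and no detection limit was computed.

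Values per library are given in the order of replicates 1 to 3. Sst averaged 16.6, 19.2 and 13.5 per gated nucleus in wild type and 12.9, 12.45 and 14.2 in the heterozygous libraries. Its mean was 14.8 ± 2.59 over the 6 libraries (SD, n = 6) and 0.562 ± 0.0822 in all other nuclei. Wild-type replicate 2 was the highest and the groups overlapped. Npy averaged 6.74, 10.3 and 7.69 in wild type and 6.15, 6.51 and 8.90 in heterozygotes, again highest in wild-type replicate 2. Nos1 averaged 1.87, 7.24 and 3.64 in wild type and 3.93, 4.46 and 3.86 in heterozygotes. The heterozygous libraries thus lay close together and inside the wild-type range. Elfn1 ran the other way among wild-type libraries, at 1.00, 0.460 and 0.713, and stood at 0.888, 0.350 and 0.402 in heterozygotes. Nxph1, a secreted ligand of neurexins, averaged 17.6 ± 2.16 per gated nucleus (SD, n = 6) and 1.74 in the other nuclei.

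**Figure D1:**
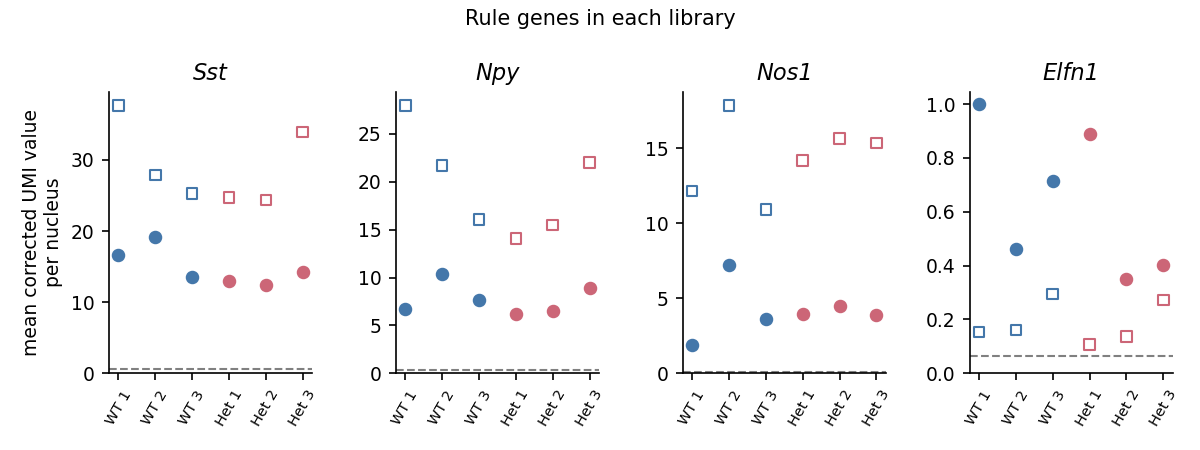
Mean corrected UMI value per nucleus (y axis) of 4 rule genes in each library (x axis; WT, wild type; Het, Celsr3 heterozygous). Filled circles are all gated nuclei, open squares those with a Nos1 value of at least 3, and the dashed line is the mean of all other nuclei; Nos1 was lowest and Elfn1 highest in wild-type replicate 1.

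Values at the edges of the rule show how the members graded into their neighbours. The 87 members with a summed Sst and Npy value of exactly 4 had Nos1 in 12.6% of nuclei, and the 134 nuclei kept out at 3 had it in 14.9%. At the MSN limit, the 46 members with a summed Rgs9 and Pde10a value of 7 had Nos1 in 60.9% of nuclei and the 30 nuclei kept out at 8 had it in 56.7%. The 18 members with a summed Nxph1, Nos1 and Elfn1 value of 3 had Lhx6 in 50% of nuclei, and the 42 kept out at 2 in 4.76%. At the Slc17a7 limit there were 80 members at 1 and 14 nuclei kept out at 2. At the Mog and Mag limit there were 78 members at 1 and 16 kept out at 2.

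Members with a Nos1 value of at least 3, a subset taken after the values were seen, numbered 144, with 13, 25 and 34 in wild type and 28, 22 and 22 in heterozygotes. Sst and Npy each had a value in 99.3% of them, Sox6 in 97.2% and Lhx6 in 75.7%. Tacr1, the receptor of substance P, had a value in 91.0%, and Chodl, a marker of long-range Nos1 cells of the cortex that was singled out after its values were seen, in 55.6%. Elfn1 had a value in 14.6%. The mean of Sst in this subset was 29.0 ± 5.57 and that of Npy 19.6 ± 5.31 (SD, n = 6 libraries), against 14.8 and 7.72 in all members. Of the GABA-synthesising enzymes, Gad1 had a value in 43.1% of the subset and 61.5% of all members, and Gad2 in 44.4% and 73.5%. These shares are pooled over libraries, the subset is part of the members, and the difference was not tested.

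The gated nuclei were divided into 6 clusters by their variable genes, which is a description of the same values and carries no test. The leading genes are those with the greatest ratio over the other members and were named from the data. Cluster 1, with 150 nuclei, was led by Hhip, Tacr1, Dach1, Nos1 and Eda. Nos1 had a value in 94.0% of its nuclei, Sox6 in 100% and Lhx6 in 76.0%, and its median summed Sst and Npy value was 34. Averaged over its nuclei, Nos1 stood at 12.03 and at most 2.75 in each other cluster. Of the 6 clusters it is the one that matches the label.

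Cluster 2, with 118 nuclei, was led by Trhde, which encodes an enzyme that degrades thyrotropin-releasing hormone, and by Npas3, Mgat4c, Rbp4 and Cdh9. Elfn1 had a value in 62.7% of its nuclei, Sox6 in 91.5% and Nos1 in 19.5%, and Satb1, a chromatin organiser of maturing Sst interneurons, averaged 4.42 against 0.620 in cluster 1. Cluster 4, with 92 nuclei, was led by Car10, Npsr1 and Htr7, receptors among them for neuropeptide S and serotonin. Sox6 had a value in 77.2% of its nuclei, Lhx6 in 51.1% and Nos1 in 32.6%. Its share with Nos1 lay between those of clusters 1 and 2, and its shares with Sox6 and Lhx6 lay below both. The serotonin receptor gene Htr2c averaged 6.21 there and 4.11 in cluster 1, and at most 0.969 in each of the remaining clusters.

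Cluster 3, with 96 nuclei, was led by Hs3st4, Fign and the forebrain transcription factor gene Six3. All of its nuclei carried Sst, but Lhx6 had a value in 1.04%, Sox6 in 7.29% and Nos1 in 5.21%. Its median summed Sst and Npy value was 6, near the limit of 4. In oligodendrocyte-gated nuclei an Sst value above 0 was found in 31.2%, but their median was 0 and their 75th percentile 1. The share of those nuclei that reached a sum of 4 was not computed. Isl1, a transcription factor gene of cholinergic and direct-pathway striatal neurons, had a value in 59.4% of its nuclei and in at most 4.35% of each other cluster. Cluster 5, with 43 nuclei, was led by Egfr, Adarb2, Pde11a, Sv2c and Kit. Npy had a value in 100% of its nuclei, Sst in 30.2% and Sox6 in 2.33%, and Gad2 averaged 9.61 there against 0.633 in cluster 1. Cluster 6, with 41 nuclei, was led by Pdgfra, Bcas1os2 and Gpc5, with Ptprz1, Vcan and Sox10 among its first genes. Of these genes, Pdgfra and Vcan were listed markers of oligodendrocyte precursors. The nuclei of cluster 6 had a median of 1914 genes against 3394 or more in each other cluster. The cluster was given no name.

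**Figure D2:**
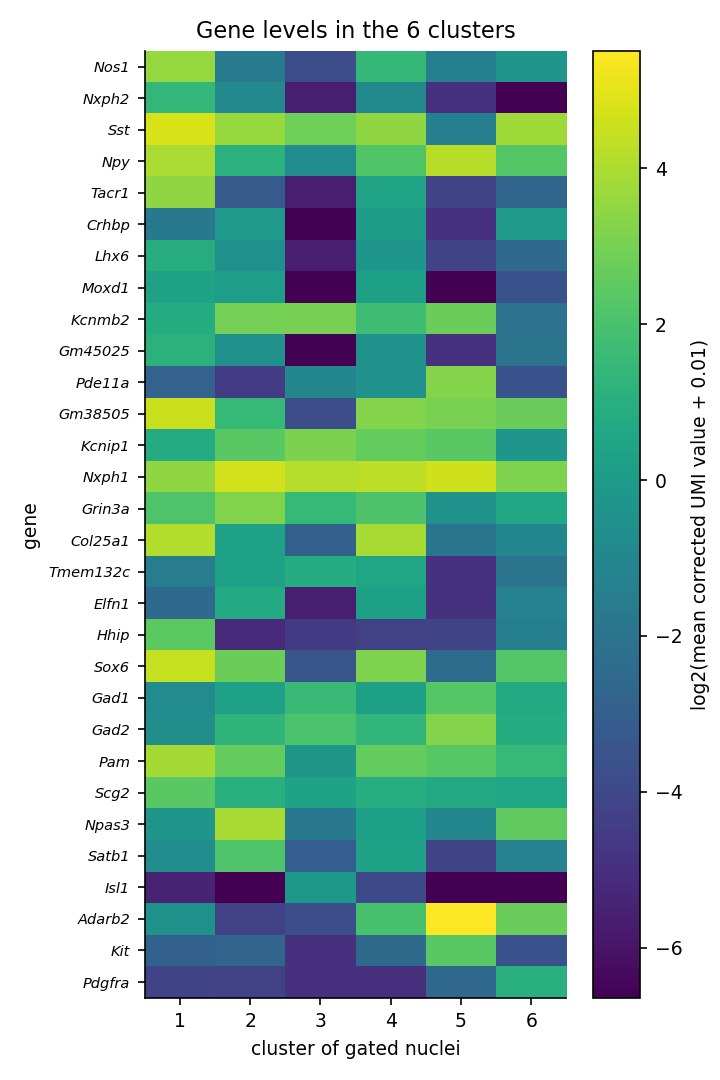
Level of 30 genes (rows) in the 6 clusters of gated nuclei (columns), as log2 of the mean corrected UMI value over the nuclei of the cluster plus 0.01. Nos1, Tacr1 and Hhip stand out in cluster 1, Npas3 in cluster 2, Isl1 in cluster 3, Adarb2 and Kit in cluster 5 and Pdgfra in cluster 6.

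The libraries differed in their mixture of clusters, also within a genotype. Cluster 1 made up 15.6%, 44.4% and 30.6% of the gated nuclei in wild type and 28.0%, 28.75% and 23.9% in heterozygotes. Cluster 2 made up 33.3%, 15.9% and 18.5% in wild type and 40.2%, 3.75% and 13.0% in heterozygotes. Cluster 3 held 21, 11 and 17 nuclei of the wild-type libraries but 0, 22 and 25 in heterozygotes. Heterozygous replicate 1 therefore stood apart, with the most nuclei of cluster 2 and none of cluster 3. Means over all gated nuclei of a library carry this mixture, and its part in the genotype values was not tested.

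**Figure D3:**
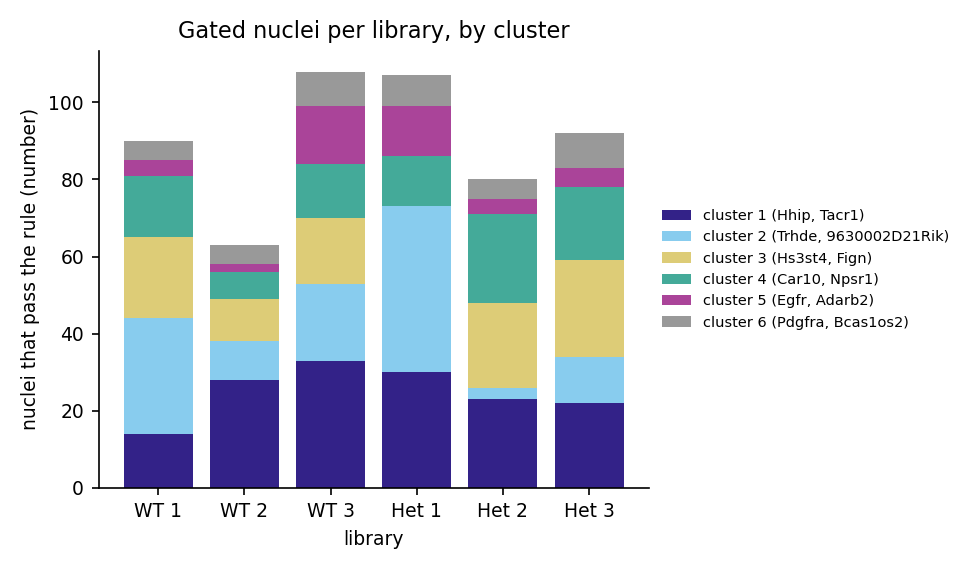
Number of gated nuclei (y axis) in each library (x axis; WT, wild type; Het, Celsr3 heterozygous), stacked by cluster with the leading genes of each. Heterozygous replicate 1 had 43 nuclei of cluster 2 and 0 of cluster 3.

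Against all other nuclei, gated nuclei were higher in all 6 libraries for 29.8% of the 15325 genes with a mean of at least 0.02 in either population, with a median log2 ratio of 0.27, beside their greater number of detected genes. Among genes with a mean of at least 0.5 per gated nucleus, those of greatest ratio were Nos1 (log2 5.44), Nxph2 (5.06), Sst (4.69), Npy (4.66), Tacr1 (4.51), Crhbp (4.35), Lhx6 (4.22) and Moxd1 (3.85). Crhbp encodes the binding protein of corticotropin-releasing hormone, and Nxph2 a relative of the rule gene Nxph1. Lhx6 averaged 0.837 ± 0.178 per gated nucleus (SD, n = 6) and 0.0353 elsewhere. Sox6 averaged 6.96, 12.3 and 11.2 in wild type and 9.17, 9.21 and 7.87 in heterozygotes, and 1.12 ± 0.242 in the other nuclei. Of 23 transcription factor genes of the ganglionic eminence lineages, 12 were higher than in the other nuclei in all 6 libraries, with a median log2 ratio of 1.14 over the list. Among them Satb1 averaged 1.36 ± 0.560 against 0.279, and Maf 1.24 ± 0.567 against 0.275 (SD, n = 6). Npas3 did not differ in this way, at 4.101 ± 1.777 against 4.079.

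Counts over lists leave out the 10 rule genes from here on. Of 6 genes of GABA release, 4 were above the MSN-gated nuclei, which use the same transmitter, in all 6 libraries, where 31.2% of all genes were. Gad2 averaged 2.77 ± 0.586 against 1.22 there, and the vesicular transporter gene Slc32a1 1.37 against 0.513. The clusters differed widely in Gad2: cluster 1, at 0.633, lay below the MSN-gated mean and cluster 5, at 9.61, far above it. Of 17 neuropeptide and secretory genes, 7 exceeded the other nuclei in all 6 libraries. Pam, whose enzyme amidates peptides such as neuropeptide Y, averaged 7.37 ± 1.26 against 1.59 ± 0.161, and the granule gene Scg2 2.75 ± 0.308 against 0.619 ± 0.132 (SD, n = 6). Both stood highest in cluster 1, at 14.7 for Pam and 5.31 for Scg2. Of 12 genes of nitric oxide and cyclic GMP signalling, 2 exceeded the other nuclei in all 6 libraries, a share under the 29.8% of all genes. Against MSN-gated nuclei 3 were higher and 5 lower in all 6 libraries, beside 31.2% and 15.3% of all genes. One of the 2 was Prkg1, the cyclic GMP kinase, at 5.82 ± 1.89 against 2.85, which stood at 13.5 in cluster 3 and 4.15 in cluster 1. Tacr1 was the listed peptide receptor gene with a mean above 1, at 3.51 ± 1.30.

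Of 28 potassium channel genes, 14 exceeded the other nuclei in all 6 libraries. Kcnc2, a channel of fast repolarisation, averaged 9.70 ± 1.66 against 1.43, and was highest in cluster 2 at 22.9. Kcnmb2, a subunit of calcium-activated channels, averaged 4.804 ± 0.8016 against 0.342, and the channel partner Kcnip1 4.68 ± 0.809 against 0.443 (SD, n = 6). Sodium and calcium channel genes were above the other nuclei in 11 of 18 cases, with Scn9a at 2.36 against 0.391. Glutamate receptor genes were so in 8 of 20: Grik1, a kainate receptor subunit, averaged 7.81 ± 1.77 against 1.14, and Grin3a 4.63 ± 0.772 against 0.491, while Grm5 was lower, at 7.54 against 12.5. Of 22 neuromodulator receptor genes 8 were higher, among them the muscarinic receptors Chrm2 (2.88 against 0.378) and Chrm3 (4.64 against 1.72). Synaptic adhesion genes were higher in 16 of 34, with Erbb4, the neuregulin receptor of interneurons, at 17.3 ± 3.54 against 8.11. Among members with a Nos1 value of at least 3, however, Erbb4 averaged 9.05 ± 5.14 in wild type and 5.00 ± 2.53 in heterozygotes (SD, n = 3 each). Its ligand gene Nrg1 was lower in the gated nuclei, at 6.005 against 19.2. The shares of neuromodulator receptor, GABA receptor (5 of 14) and planar cell polarity genes (5 of 17) were near the 29.8% of all genes. Those of cortical Sst subtype genes (3 of 16) and immediate early genes (1 of 16) were under it. Glia are among the other nuclei. Against MSN-gated nuclei, 17 potassium channel genes were higher and 7 lower in all 6 libraries. These counts were 8 and 7 for sodium and calcium channel genes and 6 and 10 for glutamate receptor genes. Neuromodulator receptor genes gave 7 and 10, and adhesion genes 13 and 9. Of all genes, 31.2% were higher and 15.3% lower.

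Markers of other cells were measured in the same nuclei. All 9 MSN markers outside the rule were below the MSN-gated nuclei in all 6 libraries, where 15.3% of all genes were. Members and MSN-gated nuclei were split beforehand on Rgs9 and Pde10a, so this count describes the gates and tests nothing. The other nuclei include glia, so glial markers were set against MSN-gated nuclei, above which 31.2% of all genes lay in all 6 libraries. Above that level in all 6 libraries were 3 of 4 oligodendrocyte markers, 3 of 5 markers of their precursors (Pdgfra, Cspg4 and Vcan), 1 of 6 astrocyte, 1 of 5 microglial, 1 of 5 vascular and 0 of 5 glutamatergic markers. Mbp averaged 3.13 ± 0.926 in gated and 2.30 in MSN-gated nuclei (SD, n = 6) and was above the MSN-gated nuclei of the same library in all 6, and in cluster 6 it reached 13.1. Against all other nuclei, 29.8% of all genes were higher in all 6 libraries. Markers of Pvalb or Pthlh cells were so in 3 of 7 cases (Crhbp, Kit and Eya4). Kit averaged 5.26 in cluster 5 against 0.115 in the other members, and Eya4 1.56 in cluster 2 against 0.142. Pvalb itself averaged 0.248 in wild type and 0.302 in heterozygotes, and Pthlh 0.0037 and 0.0036. Markers of Cck or Vip cells exceeded the other nuclei in 2 of 6 cases (Adarb2 and Npas1), and those of cholinergic cells in 1 of 7, the peptidase gene Ecel1. None of the 4 markers of Th or Calb2 cells did so, and Th itself averaged 0.0104.

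Celsr3, the targeted gene, was read in 88 of 540 gated nuclei (16.3%), against 0.920% of oligodendrocyte-gated nuclei. Its mean per gated nucleus was 0.133, 0.159 and 0.185 in wild type and 0.196, 0.175 and 0.196 in heterozygotes. The heterozygous libraries lay in or above the upper part of the wild-type range, and the groups overlapped. Wild type averaged 0.159 ± 0.0259 and heterozygotes 0.189 ± 0.0121, or 119% of wild type (SD, n = 3 each). The log2 difference was 0.24 (two-sided exact permutation p = 0.2). It was 0.03 among members with a summed Sst and Npy value of at least 8 (two-sided exact permutation p = 0.8) and 0.13 without wild-type replicate 1. The gene fell under the filter of the fit across genes. Celsr3 was thus not lower in the gated nuclei of the heterozygous libraries. These means rest on 63 to 108 gated nuclei in a library, none with a Celsr3 value above 2. Whether the altered copy still yields RNA that 3′ counting reads is not known from the labels. In MSN-gated nuclei of the same libraries the gene was lower, as given next, and the reason for the unlike classes was not tested.

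In MSN-gated nuclei of the same libraries Celsr3 averaged 0.131, 0.157 and 0.147 in wild type and 0.0753, 0.0975 and 0.0967 in heterozygotes. There the groups did not overlap and heterozygotes averaged 61.9% of wild type (two-sided exact permutation p = 0.1, the smallest possible). Cholinergic-gated nuclei, 201 in all, averaged 0.222 ± 0.0811 in wild type and 0.149 ± 0.0736 in heterozygotes (SD over 3 libraries each; two-sided exact permutation p = 0.3). The log2 difference between gated and MSN-gated nuclei of a library was 0.116 ± 0.167 in wild type and 1.00 ± 0.250 in heterozygotes (SD, n = 3 each). These 2 groups did not overlap and differed by 0.89, at the smallest p that 3 against 3 libraries allow (exact permutation p = 0.1, two-sided). In the limma model over both classes, with the summed value averaging at least 10 per library, the same difference was 0.89 ± 0.28 (SE) and did not pass adjustment over all genes (adjusted p = 1.00).

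**Figure D4:**
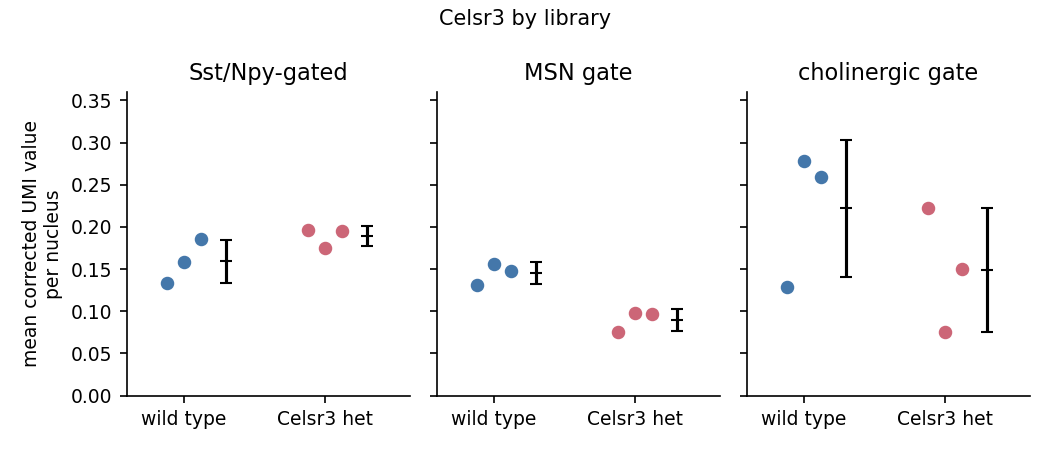
Mean corrected UMI value of Celsr3 per nucleus (y axis) in Sst/Npy-gated, MSN-gated and cholinergic-gated nuclei; each point is a library, and the bar beside the points is the group mean with its SD (n = 3). Heterozygous libraries lie below wild type in MSN-gated nuclei, while the groups overlap in Sst/Npy-gated nuclei.

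No gene was called changed by genotype in the gated nuclei. Of 4662 genes tested with limma, 0 (0%) had an adjusted p under 0.05 in either direction, and 191 (4.1%) had an unadjusted p under 0.05. The smallest adjusted p was 1.00. Wild-type and heterozygous libraries did not overlap for 426 genes (9.14%), higher in heterozygotes for 267 (5.73%) and lower for 159 (3.41%). Among genes at an unadjusted p under 0.05, 48.7% were higher in heterozygotes, and 35.1% were so after scaling by library size factors, with 0 called there as well. With the replicate number as a block 0 were called (smallest adjusted p = 0.609).

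The 10 genes of smallest unadjusted p were all lower in heterozygotes, by 0.60 to 0.84 on the log2 scale, and none passed the test. All 10 stayed lower, with 0 called, under each alternative that gave them a value. The alternatives reuse the values by which these genes were picked, so the kept sign is no evidence of a change. Gm42439 moved from -0.60 to -0.25 with a summed Rgs9 and Pde10a value of at most 3. First among the 10 genes was 4932443L11Rik, at 0.967, 0.873 and 0.880 in wild type and 0.542, 0.600 and 0.576 in heterozygotes (log2 difference -0.65 ± 0.14 SE; limma adjusted p = 1.00). The groups did not overlap for this gene. The ribosomal protein gene Rps2 stood at 0.911, 0.603 and 0.537 in wild type and 0.402, 0.3625 and 0.413 in heterozygotes (log2 difference -0.75 ± 0.21 SE; limma adjusted p = 1.00). Its spread was larger among the wild-type libraries. The other 8 were Gm21798, Gm42439, 3110021N24Rik, Gm45645, Slc7a6os, 6530409C15Rik, March11 and Rsf1os1, several of which carry clone or predicted-gene names.

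**Figure D5:**
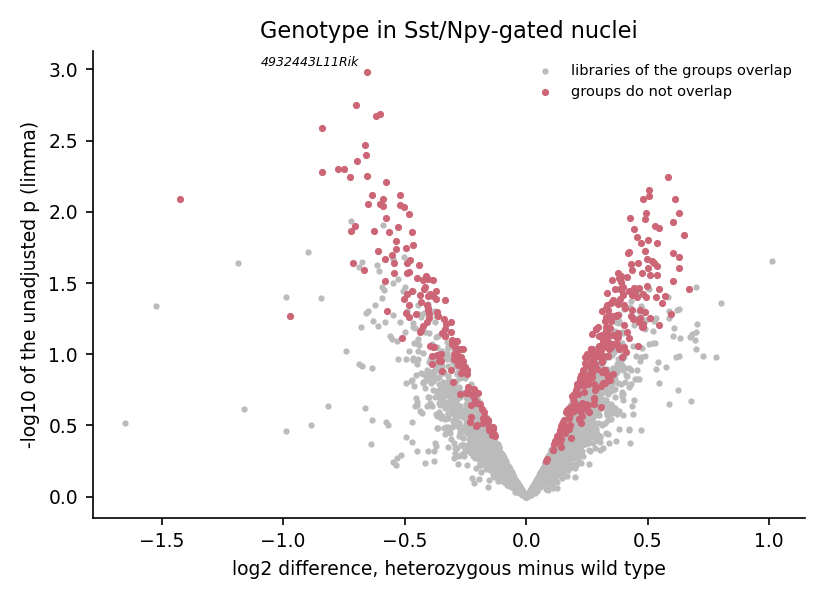
Each of 4662 genes in the gated nuclei by its log2 difference, heterozygous minus wild type (x axis), and the -log10 of its unadjusted limma p (y axis). Red points are the 426 genes whose wild-type and heterozygous libraries do not overlap; none has an adjusted p under 0.05, and 4932443L11Rik has the smallest p.

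The rule genes are given by genotype as a description only, since their values chose the members. Sst differed by -0.30 ± 0.17, Npy by -0.20 ± 0.21, Nos1 by 0.15 ± 0.38 and Elfn1 by -0.46 ± 0.36 on the log2 scale, heterozygous minus wild type (SE). Of the lineage factors outside the rule, Lhx6 differed by 0.06 ± 0.22 and Sox6 by -0.18 ± 0.22 (SE; limma adjusted p = 1.00 each). Of 170 listed genes outside the rule that were tested, 0 were called, and 1 had an unadjusted p under 0.05, beside 4.1% of all genes. It was the astrocyte gene Slc1a3 (log2 difference 1.01 ± 0.38 SE; limma adjusted p = 1.00), while the other astrocyte marker tested, Slc1a2, stood at -0.06 ± 0.21. The median log2 difference of all genes tested was 0.03. For 23 potassium channel genes the median was -0.01, for 31 adhesion genes 0.03 and for 20 glutamate receptor genes -0.02. It was -0.03 for 16 sodium and calcium channel genes and 0.08 for 12 GABA receptor genes. For 6 genes of GABA release it was 0.13, and for 11 neuropeptide and secretory genes -0.01. The peptide genes Cort, Pdyn, Vip, Cck and Crh of the last list fell under the filter. Among 11 transcription factor genes 4 were higher and 7 lower, and among 7 nitric oxide and cyclic GMP genes 5 were higher and 2 lower. All 4 tested markers of Pvalb or Pthlh cells (Crhbp, Kit, Eya4 and Tac1) were lower, with a median of -0.31 and 0 called. Of 2 microglial markers tested 1 was higher and 1 lower, with a median of -0.21 and 0 called.

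In the planar cell polarity list, to which Celsr3 belongs, 6 of 17 genes reached the filter, 3 higher and 3 lower. The largest difference among them was that of Celsr2, at 0.70 ± 0.33 (SE; limma adjusted p = 1.00), and Prickle2 stood at 0.01 ± 0.14. Groups did not overlap for 3 of these 170 listed genes (1.76%), beside 9.14% of all genes, so they are no result about the lists. The 3 were Nrxn2 (log2 difference 0.25), the GABA-degrading enzyme gene Abat (0.21) and Adcyap1r1, the receptor of the peptide PACAP (0.25), each higher in heterozygotes. All 4 oligodendrocyte markers tested were lower in heterozygotes, with a median of -0.46. The summed level of all 6 oligodendrocyte markers, the rule genes Mog and Mag included, ran from 6.73 to 8.89 in wild type and from 3.925 to 8.97 in heterozygotes, and its part in the genotype values was not tested.

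Within the 144 nuclei with a Nos1 value of at least 3, 0 of 902 genes were called (0%), 49 (5.43%) had an unadjusted p under 0.05, and the groups did not overlap for 100 (11.1%; 6.21% higher and 4.88% lower in heterozygotes). The smallest limma adjusted p was 0.466, for Synpr, a synaptic vesicle protein gene, which averaged 1.15, 0.840 and 1.06 in wild type and 2.25, 2.50 and 1.86 in heterozygotes (log2 difference 1.11 ± 0.23 SE). All 3 heterozygous libraries exceeded all 3 wild-type libraries. Of the 49 genes 22 were higher and 27 lower in heterozygotes. The second smallest p was that of 9630028H03Rik, lower in heterozygotes (log2 difference -1.01 ± 0.23 SE; limma adjusted p = 0.494), and the fourth that of Nrg3os, also lower (-0.81 ± 0.21 SE; limma adjusted p = 0.515). The phosphodiesterase gene Pde4b had the third, at 3.85, 4.04 and 4.24 in wild type and 6.89, 6.59 and 5.82 in heterozygotes (log2 difference 0.67 ± 0.16 SE; limma adjusted p = 0.514). These genes were chosen after their values were seen. Within the members with a Sox6 value of at least 2, 0 of 2768 genes were called (0%) and 117 (4.23%) had an unadjusted p under 0.05. The groups did not overlap for 264 genes (9.54%; 5.2% higher and 4.34% lower in heterozygotes).

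The genotype difference in gated nuclei was set against that in MSN-gated nuclei in 1 limma model with the library as a block. Of 4636 genes, 0 (0%) had an adjusted p under 0.05 for the difference between the classes, and 130 (2.80%) had an unadjusted p under 0.05. The smallest unadjusted p values were those of Smg5, a factor of RNA decay (-0.94 ± 0.22 SE), Slc7a6os (-0.62 ± 0.16) and Dlg1, a synaptic scaffold gene (0.65 ± 0.17), at an adjusted p of 1.00 each. Dlg1 rested on 0.644 ± 0.0475 and 0.979 ± 0.168 in gated nuclei of wild type and heterozygotes and on 1.75 ± 0.184 and 1.67 ± 0.0351 in MSN-gated nuclei (SD, n = 3 each). Without wild-type replicate 1 a single gene, Ubash3b, was called (log2 difference 1.83 ± 0.21 SE; limma adjusted p = 0.0352), and with all libraries it stood at 0.94 ± 0.58. Against nuclei with Pvalb or Pthlh, the comparison could use 32 nuclei, 2 to 9 in a library, and 100 genes. There 0 were called (0%) and 0 had an unadjusted p under 0.05; Ptprd (-1.67 ± 0.80 SE), Cntnap5a (-2.82 ± 1.52) and Csmd3 (1.24 ± 0.67) had the smallest unadjusted p values.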

How the data were processed

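Nuclei of 6 striatal libraries, 3 wild type and 3 Celsr3 heterozygous, were read from a table of 24841 genes and 48834 nuclei deposited by the authors. Its values were treated as a score, since the deposited numbers are whole but depth-corrected: totals per nucleus ran from 4523 to 10638 with a coefficient of variation of 10.7%, and in 10.0% of nuclei at least 10 low genes had a value but none had the value 1. Cell Ranger, Seurat 4.1 and mm10 or GRCm38 are named in the submitters' processing notes, with no role given. Libraries were made with 10x Genomics 3′ v3.1 chemistry, per the labels' protocols. Whether counting used strand is not given in the sources used here.

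The plan provided for raw counts and for normalized values. The unit being a score, no count model was used. Values were averaged per nucleus for each library and tested as log2(mean + 0.01) in limma 3.58.1 under R 4.3.3, with a trended prior, Benjamini-Hochberg adjustment and calls at an adjusted p under 0.05. On this scale changes of low genes are understated. Genes needed a mean of at least 0.02 and a summed value averaging at least 30 per library. The fit was tested on simulated data. Single values were compared with exact permutation tests over libraries (scipy 1.17.1, Python 3.11.15). Other classes were gated on summed values of Rgs9 and Pde10a (MSN), Mog and Mag (oligodendrocyte), Chat and Slc5a7 (cholinergic), or Pvalb and Pthlh with Gad1 and Gad2, each with upper limits on other classes' genes. Clusters came from 1000 variable genes, 15 principal components (scikit-learn 1.9.0) and Ward linkage (scipy).

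The members, lists and thresholds were chosen with earlier results of these data known. Named genes were Celsr3, the 10 rule genes, listed genes at a mean of at least 1 or the 4 highest of a list, the 20 of greatest ratio over other nuclei among genes with a mean of at least 0.5 per gated nucleus, the 10 of smallest p by genotype and the 3 of smallest p in each comparison of classes. From these the text gives those its sentences turn on. Leading genes of clusters, Chodl, Celsr2, Abat, Slc1a3, Synpr, 9630028H03Rik, Nrg3os, Pde4b, Mid1 and Ubash3b were named after their values were seen. Alternatives were another pseudocount, other filters, size factors, array weights, a replicate block, other rule thresholds, Nos1 and Sox6 subsets, and leaving out each library. Promoters of Sst and Npy were matched by symbol in a RefSeq table of 27025 genes. No protein sequence was used here.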

Additional observations from a re-analysis of the deposited data

How the results depend on the processing

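The count of genes called by genotype in gated nuclei was 0 under all 17 alternatives, with the smallest adjusted p between 0.0692 (no filter on low values) and 1.00, and stayed 0 without each library (limma adjusted p from 0.187 to 0.999). Genes at an unadjusted p under 0.05 went from 191 to 348 without heterozygous replicate 1 and to 107 without heterozygous replicate 2. The difference in the share of nuclei, 0.017 percentage points, turned to -0.043 at a summed Sst and Npy value of at least 8. It was -0.034 at a summed Rgs9 and Pde10a value of at most 3, -0.013 with Nos1 of at least 3 and -0.029 with Sox6 of at least 2. Without each library it ranged from -0.134 to 0.135. A GABAergic gate took nuclei with summed Gad1 and Gad2 of at least 2 and summed Rgs9 and Pde10a of at most 7. Members made up 4.73% of that gate in wild type and 4.53% in heterozygotes, a difference of -0.21 on this larger base. Oligodendrocyte-gated nuclei made up 16.5% to 26.2% of the GABAergic gate in a library. The difference in median genes per nucleus, 90.2, was -27.7 at a summed Rgs9 and Pde10a value of at most 3, and ranged from 45.4 to 138 without each library. The cause was not tested. The log2 difference of Celsr3, 0.24, was above 0 under 17 alternatives but fell to 0.03 at a summed Sst and Npy value of at least 8 (exact permutation p = 0.8). It was at most 0.47, and 0.13 to 0.35 without each library, lowest without wild-type replicate 1. The difference against MSN-gated nuclei gave 0 to 1 called genes without each library, the 1 being without wild-type replicate 1, and that against Pvalb or Pthlh nuclei 0 in each case. The Nos1 and Sox6 subsets were chosen after seeing the data.

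Deviations from the group means correlated across genes at -0.015, 0.093 and -0.155 for same-numbered libraries. For libraries of unlike number the correlations ran from -0.099 to 0.127. Deviations within a group are tied to each other, so these values cannot decide whether same-numbered libraries were paired. With the replicate block 0 of 4662 genes were called (192 at an unadjusted p under 0.05). Celsr3 does not enter that fit. In a block fit with the lower filter, over 9454 genes, it stood at 0.24 (limma adjusted p = 0.997). The deposited values give no depth, so no detection limit was computed.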

Other observations

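Mid1, a gene under the filter that was singled out after its values were seen, averaged 0.133, 0.0635 and 0.102 per gated nucleus in wild type and 0.327, 0.2875 and 0.2935 in heterozygotes, so that the groups did not overlap (log2 difference 1.56; exact permutation p = 0.1, two-sided, the smallest possible). In MSN-gated nuclei its mean was 0.0337 ± 0.00723 and 0.224 ± 0.0227 (SD, n = 3 each). In cholinergic-gated nuclei wild type stood at 0.8995 ± 0.2419 and heterozygotes at 0.856 ± 0.266 (SD over 3 libraries each; two-sided exact permutation p = 0.8).

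Ubash3b, also singled out afterwards, averaged 2.96, 2.16 and 2.06 per gated nucleus in wild type and 1.77, 3.05 and 2.90 in heterozygotes, and 0.171, 0.804 and 0.824 against 0.216, 0.245 and 0.351 in MSN-gated nuclei. In MSN-gated nuclei wild-type replicate 1 lay below all 5 other libraries.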
